A study of Mus musculus with 36 samples.

Results

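The 10 genes described here encode adaptor and signalling proteins of focal adhesions, the sites at which a cell is fixed to its matrix. They were picked by name (Vcl, Zyx, Tln1, Pxn, Ptk2, Flna, Actn1, Actn4, Ilk and Tns3) among the 55358 genes of the count table. Poly(A) RNA was sequenced from murine keratinocytes of 3 kinds. WT cells (Pkp4-wildtype) and PKP4-KO cells (Pkp4-knockout, from an allele that lacks an exon of Pkp4) came from the epidermis of newborn pups of intercrossed heterozygous mice. Rescue cells are PKP4-KO cells that express GFP-PKP4, human plakophilin 4 with a GFP tag, from a lentivirus and were selected with puromycin into a stable line, so they share the deleted allele with PKP4-KO. Each kind was kept for 24 h or 72 h in low calcium medium (LCM) or high calcium medium (HCM), which gave 12 groups of 3 libraries and 36 in all. WT and PKP4-KO cells stem from different pups, and PKP4 re-expression in Rescue comes with viral transduction and drug selection, so that these effects cannot be told apart from those of PKP4. The submitters call the 3 libraries biological replicates, but how many pups or cultures stand behind them is not given in the sources used here, and the p-values measure the spread between these libraries.

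Focal adhesions join integrins, the transmembrane receptors for matrix, to bundles of actin. Talin (Tln1) binds the integrin tail and actin, vinculin (Vcl) reinforces that link under force and is also found at adherens junctions, and tensin 3 (Tns3) and filamin A (Flna) are further links between integrins and actin filaments. Paxillin (Pxn), focal adhesion kinase (Ptk2) and integrin-linked kinase (Ilk, a pseudokinase scaffold) carry the signalling side, zyxin (Zyx) gathers at adhesions and stress fibres under tension, and the alpha-actinins (Actn1, Actn4) cross-link actin filaments. In epidermis, calcium starts junction formation and differentiation in cultured keratinocytes, and differentiating cells leave the matrix-bound basal layer.

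The knocked-out gene was checked first. Pkp4 lay between 12.6% and 27.5% of the WT mean in PKP4-KO in the 4 culture conditions, without overlap of libraries (p = 0.1 by a two-sided exact permutation test for every condition, the smallest that 3 against 3 can give), and the GFP-PKP4 row held 1902 to 15325 counts in Rescue against at most 113 elsewhere. Total counts per library lay between 13602728 and 22467187. All 7 basal keratinocyte markers were detected in every genotype, with a summed level of 23400 to 70200 CPM that was mostly Krt5 and Krt14. CPM are counts scaled to the library total times its TMM factor, also for the markers below. The defining marker genes of fibroblasts, melanocytes, endothelium, immune and Merkel cells summed to at most 14.2 CPM. The 7 suprabasal keratinocyte markers, all detected in every genotype, summed to 222 to 4200 CPM in WT libraries, 230 to 11400 in PKP4-KO and 343 to 2880 in Rescue. Only some of them are given by name here. In PKP4-KO at 72 h HCM the suprabasal keratins Krt1 and Krt10 reached 3750 ± 101 and 4430 ± 392 CPM (SD, n = 3) against 39.7 ± 3.59 and 533 ± 96.2 in WT. Ivl was lower (20.3 ± 3.05 against 144 ± 17.1). Basal markers of matrix attachment were also lower there than in WT, with Itga6 at 29.0 ± 1.05 CPM against 106 ± 40.8, Dst at 44.3 ± 6.15 against 198 ± 88.5 and Col17a1 at 176 ± 20.2 against 327 ± 19.4, while Krt5 and Krt14 were at 14900 ± 2020 and 37700 ± 1320 against 13400 ± 3350 and 35300 ± 1380. Smooth muscle and myofibroblast markers, led by Acta2, summed to 6.36 to 83.7 CPM in WT and to at most 4.82 in the other genotypes. The 3 PKP4-KO libraries at 72 h HCM also had the lowest TMM scaling factors (0.48 to 0.55, against 0.71 to 1.39 in all other groups). Without these factors, the median log2 fold change of all tested genes at 72 h HCM, PKP4-KO over WT, shifted from -0.07 to -0.83, and the share of called genes that were higher went from 42.2% to 13.5%, so the values of that group are relative to the bulk of genes. The part of these features in the results below was not tested. In bulk RNA, fewer cells of a type and less RNA per cell cannot be told apart.

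Promoter sequences of the members are shown because factors that answer to actin and tension are known to bind such motifs. The 250 bases before the start of each gene's canonical transcript were read from the GRCm39 genome and searched on both strands for 3 motifs: the CArG box bound by SRF, GGAATG bound by TEAD factors and TGANTCA bound by AP-1. The matches shown do not overlap each other. Among 12552 promoters of tested protein-coding genes, 1.14% held a CArG box, and Vcl was the only member with one. It lies 218 to 227 bases before the start, within the printed stretch chr14:20979227-20979260 on the plus strand. Each printed stretch and its coordinates include 12 flanking bases on both sides of the motif. Capitals mark the motif in each line, and each sequence runs 5′ to 3′ on the strand of the gene.
Vcl, CArG box: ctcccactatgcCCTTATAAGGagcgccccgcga
The TEAD motif was in 11.6% of promoters and in 4 of the 10 members, namely Vcl (chr14:20979311-20979340), Flna (chrX:73290269-73290298), Actn4 (chr7:28661956-28661985) and Tns3 (chr11:8614856-8614885). In Flna and Actn4 it stands on the opposite strand and reads CATTCC.
Vcl, TEAD motif: gcccctcccttgGGAATGggggcggggcgg
Flna, TEAD motif: ggcgttgtggggCATTCCaacgggaggggc
Actn4, TEAD motif: tgaatgggaacaCATTCCaccccgaaacag
Tns3, TEAD motif: actggttttgcaGGAATGggactcgaacct
The AP-1 motif was in 4.96% of promoters and in 2 members, Zyx (chr6:42326629-42326659) and Actn4 (chr7:28661908-28661938).
Zyx, AP-1 motif: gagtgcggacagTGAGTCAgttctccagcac
Actn4, AP-1 motif: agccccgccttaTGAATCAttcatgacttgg
A match is a description of these letters only, and the windows of Tln1, Pxn, Ptk2, Actn1 and Ilk held none of the 3 motifs.

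All 10 members passed the filter on low counts. Levels are CPM scaled with TMM factors, and levels of different genes are compared per kb of the deposited gene length. The median over the 12 group means was 100 CPM per kb for Actn4, 49.7 for Actn1, 41.6 for Flna, 28.8 for Zyx, 22.5 for Ilk, 13.7 for Tln1 and 13.5 for Pxn. It was lower for Vcl (3.28), Ptk2 (3.0) and Tns3 (1.73), so that the members spanned a wide range, with the cross-linkers at the top by this length. The order between genes depends on the length used. Zyx has a deposited length of 5390 bases and a canonical transcript of 3333, against 5533 and 6224 for Actn1. Over the groups, the mean CPM of Actn4 differed by no more than 1.62-fold, and all 11 neighbouring pairs in the order of its group means had overlapping libraries. Tns3 stood at the other end, with a 24.1-fold range from 81.3 ± 12.7 CPM in WT at 72 h LCM to 3.37 ± 2.04 in PKP4-KO at 72 h HCM, and overlap in 5 of 11 neighbouring pairs. The remaining members ranged from 2.29-fold (Flna) to 4.41-fold (Pxn), and 8 to 10 of their 11 neighbouring pairs overlapped. For 6 members, namely Zyx, Pxn, Ptk2, Flna, Actn1 and Tns3, the lowest group mean was that of PKP4-KO at 72 h HCM. The lowest mean of Vcl was that of PKP4-KO at 72 h LCM, while Actn4 was highest in PKP4-KO at 72 h HCM. These orders depend on the scaling, since without TMM factors all 10 members had their lowest mean in PKP4-KO at 72 h HCM, Actn4 included (497, 398 and 395 CPM).

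**Figure D1:**
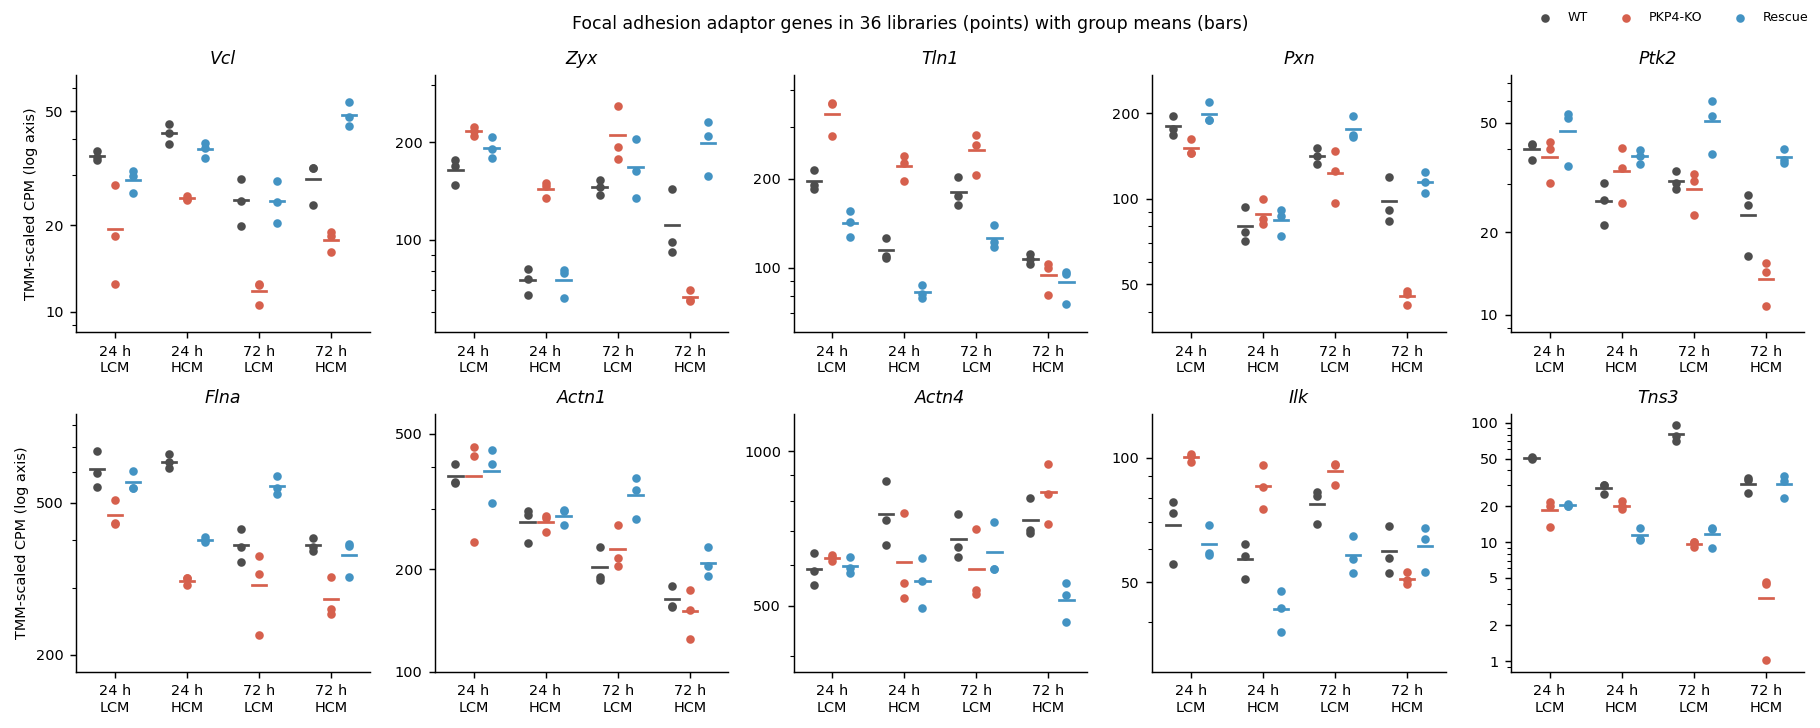
TMM-scaled CPM (log axis) of the 10 genes in each of the 36 libraries (points), with the mean of 3 libraries as a bar, by culture time and medium and coloured by genotype. Vcl is lower in PKP4-KO than in WT in all 4 culture conditions, and Tns3 falls to 3.37 CPM in PKP4-KO at 72 h HCM.

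The comparison of PKP4-KO with WT asks what loss of PKP4 changes in each culture condition. A gene is said to have passed, risen or fallen where the adjusted p of edgeR's quasi-likelihood test (Benjamini-Hochberg, 15114 genes) was below 0.05. At 24 h HCM, 5 of 10 members passed (3 higher, 2 lower) beside 42.8% of all tested genes. At 24 h LCM, 5 passed (2 higher, 3 lower) beside 40.2%. At 72 h HCM, 6 passed, all lower, beside 51.8% in either direction and 29.9% lower, and without TMM factors all 10 members were called lower. At 72 h LCM, 5 passed (2 higher, 3 lower) beside 45.1%, a split that became 0 higher and 5 lower without TMM factors. These shares lie near those of all genes, and the following concerns which members moved and in which direction. Vcl and Flna fell in all 4 conditions, Tns3 fell in 3, Tln1 rose in 3, Ilk rose in 2, and Zyx rose in 2 and fell in 1. The share of all tested genes that was called one way in several conditions was not counted, neither here nor for the comparisons below.

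**Figure D2:**
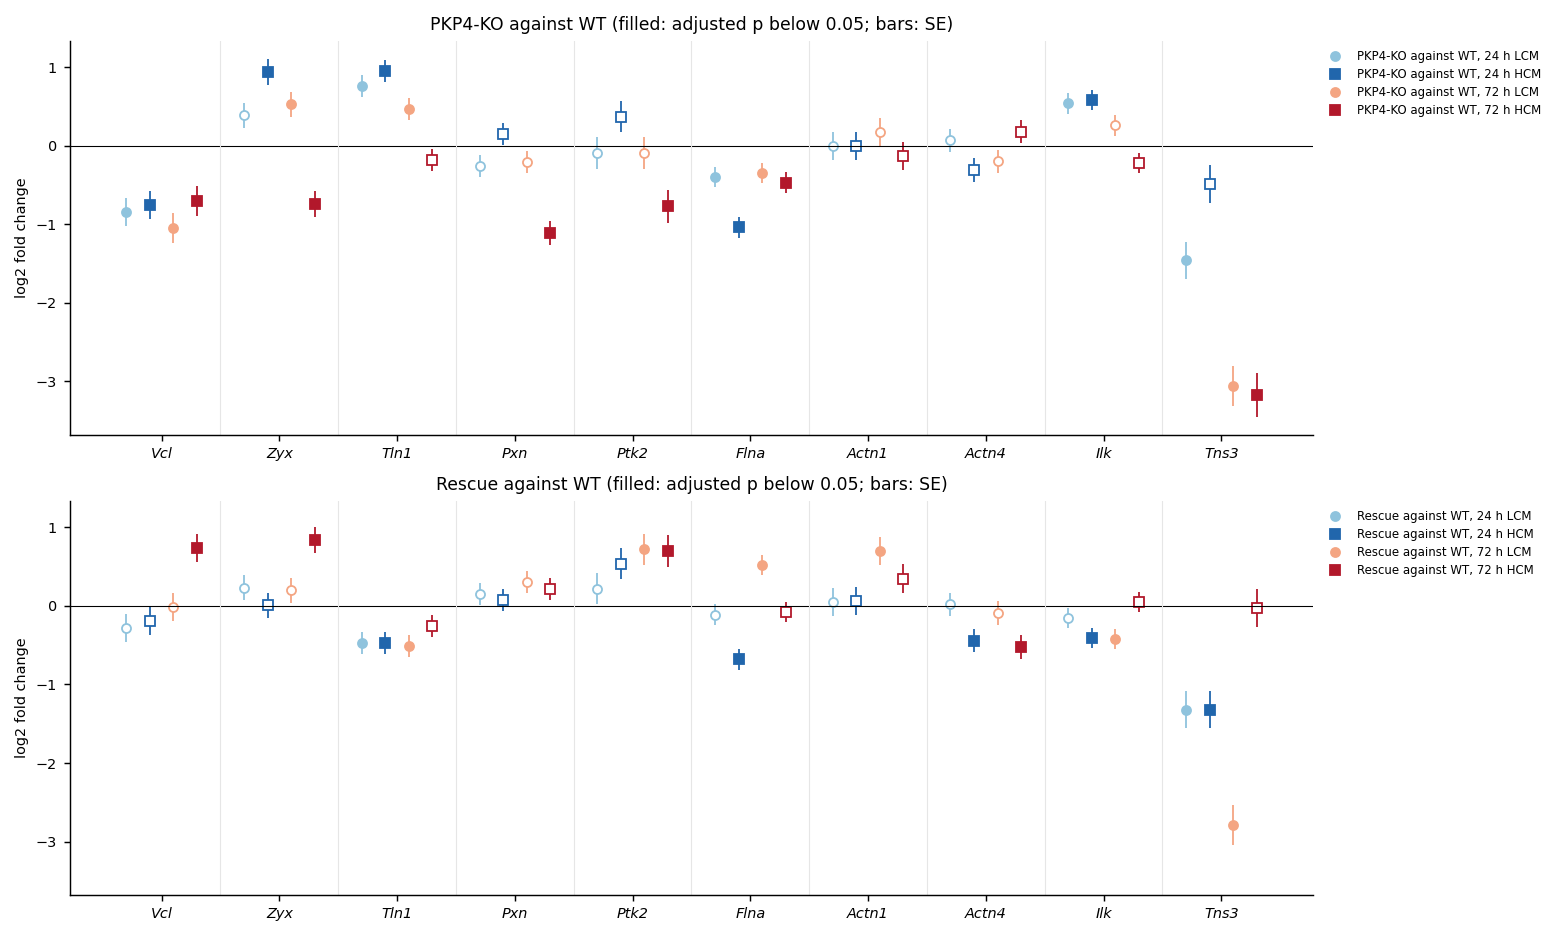
log2 fold change (± SE) of the 10 genes in PKP4-KO (top) and Rescue (bottom) against WT in the 4 culture conditions, 3 libraries a group, with filled symbols where the adjusted p was below 0.05. In PKP4-KO, Vcl and Flna lie below 0 throughout and Tns3 reaches -3.17, while in Rescue only Tns3 and Tln1 fell in 3 of the 4 conditions.

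Vinculin lost RNA in PKP4-KO in every condition. Vcl (ENSMUSG00000021823, chr14:20979449-21083758, plus strand, 22 exons in the canonical transcript) was at 45.2, 42.0 and 38.5 CPM in the 3 WT libraries at 24 h HCM and at 24.7, 25.4 and 24.5 in PKP4-KO. At 24 h LCM the values were 33.9, 34.7 and 36.3 in WT and 12.5, 18.3 and 27.6 in PKP4-KO. In both media at 24 h every PKP4-KO library lay below every WT library. At 72 h HCM the levels were 31.6, 31.6 and 23.5 against 19.0, 18.3 and 16.1. At 72 h LCM they were 19.9, 29.1 and 24.4 against 12.5, 10.6 and 12.4. Here too no PKP4-KO library reached the lowest WT library. The log2 fold change was -0.75 ± 0.18 (SE) at 24 h HCM (adjusted p = 0.00126), -0.84 ± 0.18 at 24 h LCM (adjusted p = 0.00049), -0.70 ± 0.19 at 72 h HCM (adjusted p = 0.0027) and -1.05 ± 0.19 at 72 h LCM (adjusted p = 4.2e-05). In Rescue, Vcl stood at 34.3, 37.3 and 38.7 CPM at 24 h HCM and at 53.6, 47.6 and 44.2 at 72 h HCM, the highest group mean of the gene. Its fitted level was higher than in PKP4-KO in all 4 conditions, by 1.48-fold at 24 h in both media (adjusted p = 0.0137 in HCM and 0.0163 in LCM), 2.72-fold at 72 h HCM (adjusted p = 2.39e-07) and 2.06-fold at 72 h LCM (adjusted p = 4.62e-05). Against WT, Rescue was 1.68-fold higher at 72 h HCM (adjusted p = 0.00215), and the other 3 conditions did not pass, with log2 fold changes of -0.28 to -0.01. Both 24 h differences from PKP4-KO missed the threshold without TMM factors (adjusted p = 0.0753 and 0.0878), and that at 24 h LCM, where libraries overlapped, was also lost without PKP4-KO library 1 or 2 or Rescue library 1 or 2 (adjusted p = 0.0506 to 0.157). The gene overlaps Ap3m1 on the other strand, and the strand setting of the counting is not given in the sources used here.

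Talin moved the opposite way to vinculin in 3 conditions. Tln1 (ENSMUSG00000028465, chr4:43531513-43562691, minus strand, 57 exons, overlapping Creb3 on the other strand) was at 109, 108 and 126 CPM in WT and at 239, 226 and 197 in PKP4-KO at 24 h HCM. LCM at 24 h gave 184, 214 and 190 against 279, 360 and 357. The genotypes were apart in both media, with all PKP4-KO libraries above all WT libraries, and the log2 fold changes were 0.95 ± 0.14 (adjusted p = 1.42e-06) and 0.76 ± 0.14 (adjusted p = 4.93e-05). At 72 h LCM, WT stood at 163, 202 and 175 CPM and PKP4-KO at 206, 281 and 260, again without overlap, with a log2 fold change of 0.47 ± 0.14 (adjusted p = 0.00594) that fell to 0.07 (adjusted p = 0.816) without TMM factors. At 72 h HCM, WT libraries stood at 107, 111 and 103 CPM and PKP4-KO libraries at 99.9, 80.9 and 103. This difference did not pass (-0.18 ± 0.14, adjusted p = 0.275), but Tln1 was called lower there without TMM factors (-0.95, adjusted p = 0.000365). In the other 3 conditions, Rescue had 81.4, 87.2 and 79.0 CPM at 24 h HCM, 143, 155 and 127 at 24 h LCM and 139, 117 and 122 at 72 h LCM. Each Rescue library there lay below all WT and all PKP4-KO libraries. Against PKP4-KO, Tln1 was 2.68-fold lower at 24 h HCM (adjusted p = 1.42e-09), 2.34-fold lower at 24 h LCM (adjusted p = 3.49e-08) and 1.98-fold lower at 72 h LCM (adjusted p = 1.1e-06). Against WT it was lower by 1.39-fold at 24 h HCM (adjusted p = 0.0111), 1.38-fold at 24 h LCM (adjusted p = 0.0111) and 1.43-fold at 72 h LCM (adjusted p = 0.0038). The 24 h differences from WT were lost without WT library 3 in HCM (adjusted p = 0.0699) and without WT library 2 or Rescue library 3 in LCM (adjusted p = 0.0628 to 0.0701), and those at 24 h HCM and 72 h LCM were lost without TMM factors (adjusted p = 0.286 and 0.0541). The 92 tested protein-coding genes within 5 Mb of Tln1 had a median log2 fold change of -0.65 to -0.56 in Rescue against WT and of 0.13 to 0.23 in PKP4-KO against WT. The part of the chromosomal neighbourhood in the Tln1 values was not tested.

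**Figure D3:**
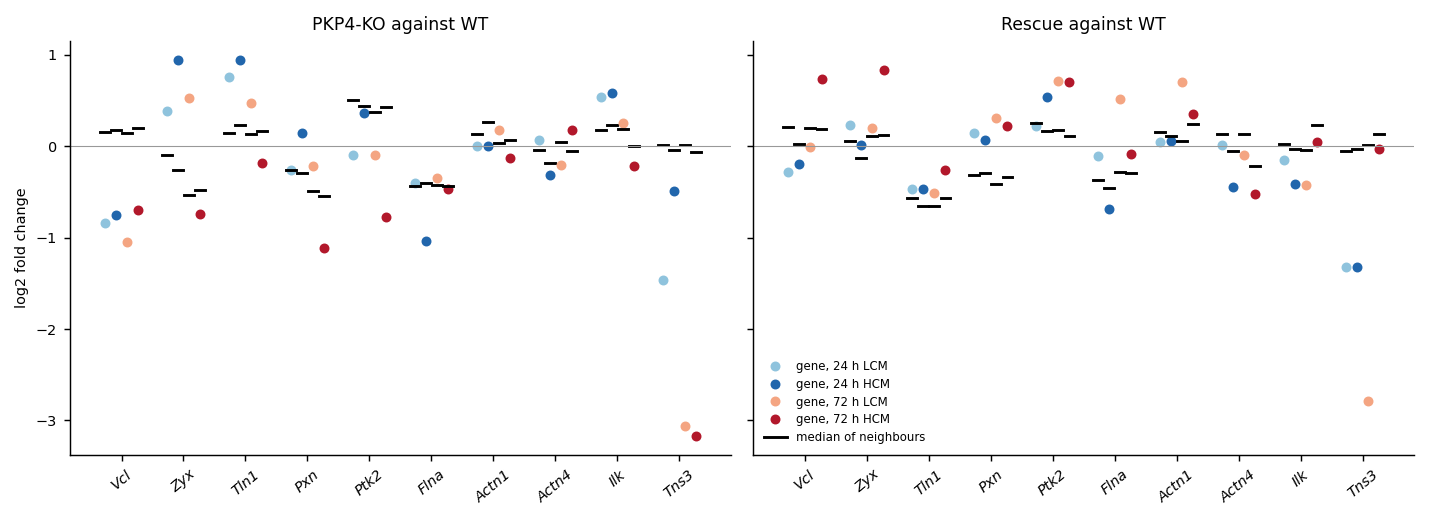
log2 fold change of each of the 10 genes against WT (coloured points) and the median of tested protein-coding genes within 5 Mb of it (black dashes), for PKP4-KO and Rescue in the 4 culture conditions. Around Tln1 the median of neighbours in Rescue is -0.65 to -0.56 and the gene lies at -0.51 to -0.26, whereas around Vcl in PKP4-KO it is above 0 while the gene is below 0.

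Tensin 3 showed the widest differences. Tns3 (ENSMUSG00000020422, chr11:8381631-8614681, minus strand, 31 exons) stood at 77.3, 95.5 and 71.0 CPM in WT at 72 h LCM and at 9.14, 10.1 and 9.94 in PKP4-KO. In HCM at that time, WT had 34.2, 32.9 and 25.9 CPM and PKP4-KO 4.44, 1.02 and 4.65, from 35, 7 and 41 counts. The PKP4-KO libraries were far below WT in both media, and the fitted change was 8.34-fold in LCM (-3.06 ± 0.26 on the log2 scale, adjusted p = 1.22e-10) and 9.02-fold in HCM (-3.17 ± 0.28, adjusted p = 2.99e-10). At 24 h LCM the levels were 51.7, 50.1 and 51.1 CPM in WT and 13.5, 21.9 and 19.9 in PKP4-KO, a 2.76-fold decrease (-1.46 ± 0.24, adjusted p = 1.79e-05). At 24 h HCM they were 30.1, 25.1 and 30.0 against 22.0, 19.9 and 18.9. The groups did not overlap there either, but the difference did not pass (-0.49 ± 0.24, adjusted p = 0.104). Rescue differed by medium at 72 h. In HCM it had 35.7, 32.5 and 23.3 CPM, overlapping WT (log2 fold change -0.03 ± 0.24) and 8.86-fold above PKP4-KO (adjusted p = 2.57e-10). In LCM it had 13.0, 8.98 and 13.2 CPM, 6.91-fold below WT (adjusted p = 8.91e-10) and overlapping PKP4-KO (0.27 ± 0.25, adjusted p = 0.397). At 24 h, Rescue stood at 10.4, 10.7 and 13.1 CPM in HCM and at 20.2, 21.0 and 19.9 in LCM, below every WT library, by 2.49-fold (adjusted p = 0.000175) and 2.5-fold (adjusted p = 0.000127). The genes around Tns3 had medians of -0.06 to 0.13 in these comparisons.

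RNA of integrin-linked kinase was higher in PKP4-KO than in WT at 24 h. Ilk (ENSMUSG00000030890, chr7:105385782-105392182, plus strand, 13 exons, overlapping Rrp8 and Taf10 on the other strand) had 51.0, 61.9 and 57.9 CPM in WT and 85.0, 75.2 and 95.8 in PKP4-KO at 24 h HCM. LCM at that time gave 55.4, 73.3 and 77.9 against 101, 102 and 97.8. No libraries overlapped, and the increases were 1.5-fold (0.58 ± 0.13, adjusted p = 0.00069) and 1.45-fold (0.54 ± 0.13, adjusted p = 0.00177). At 72 h neither medium passed, with log2 fold changes of -0.22 ± 0.13 in HCM (adjusted p = 0.172) and 0.26 ± 0.13 in LCM (adjusted p = 0.108). Without TMM factors, Ilk was called lower at 72 h HCM (-0.96, adjusted p = 1.15e-07). The 59 genes around Ilk had medians of 0.23 and 0.18 at 24 h in HCM and LCM. At 72 h these medians were 0.0 and 0.19, and the part of these genes in the result was not tested. Rescue fell below PKP4-KO by 1.99-fold at 24 h HCM (adjusted p = 6.35e-07), 1.62-fold at 24 h LCM (adjusted p = 0.000143) and 1.6-fold at 72 h LCM (adjusted p = 0.000155). It was also below WT at 24 h HCM (1.32-fold, adjusted p = 0.0266) and at 72 h LCM (1.34-fold, adjusted p = 0.0163). Both of these were lost when single libraries were left out, namely WT 2 or 3 or Rescue 1 or 3 at 24 h HCM (adjusted p = 0.0627 to 0.138) and WT 3 or Rescue 1 at 72 h LCM (adjusted p = 0.0551 to 0.0774). The difference from WT at 24 h HCM also missed the threshold without TMM factors (adjusted p = 0.112).

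Paxillin and focal adhesion kinase fell in PKP4-KO at 72 h HCM and did not pass in the other 3 conditions. Pxn (ENSMUSG00000029528, chr5:115644691-115694047, plus strand, 12 exons) had 83.9, 91.1 and 119 CPM in WT and 47.6, 42.4 and 46.1 in PKP4-KO at 72 h HCM, a 2.16-fold decrease without overlap (-1.11 ± 0.15, adjusted p = 4.71e-07). The other conditions had log2 fold changes of -0.26 to 0.15 (adjusted p = 0.158 to 0.45), of which 24 h LCM (-0.50, adjusted p = 0.00203) and 72 h LCM (-0.61, adjusted p = 0.000196) were called lower without TMM factors. The 79 genes around Pxn had a median of -0.54 in that comparison and of -0.49 to -0.26 in the other 3, and their part in the result was not tested. Ptk2 (ENSMUSG00000022607, chr15:73076832-73295129, minus strand, 35 exons) had 25.2, 27.4 and 16.4 CPM in WT and 10.8, 15.4 and 14.3 in PKP4-KO at 72 h HCM. The highest PKP4-KO library lay just under the lowest WT library, and the decrease was 1.71-fold (-0.77 ± 0.21, adjusted p = 0.00327). Around Ptk2 the median of 88 genes was 0.38 to 0.51 in PKP4-KO. In Rescue at 72 h HCM, Pxn stood at 115, 124 and 105 CPM and Ptk2 at 36.6, 35.7 and 40.3, above PKP4-KO by 2.52-fold (adjusted p = 1.54e-08) and 2.78-fold (adjusted p = 1.13e-06). Pxn in Rescue did not pass against WT in any condition (log2 fold changes 0.07 to 0.31), though at 72 h HCM it was called higher without TMM factors (0.66, adjusted p = 0.000114). Ptk2 in Rescue rose over WT at 72 h, by 1.63-fold in HCM (adjusted p = 0.00854, 0.0841 without WT library 3) and 1.64-fold in LCM (adjusted p = 0.00682, 0.0527 without Rescue library 1 and 0.0883 without TMM factors).

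Zyxin changed direction between conditions. Zyx (ENSMUSG00000029860, chr6:42301575-42339894, plus strand, 10 exons, overlapping Epha1 and Fam131b among others on the other strand) rose in PKP4-KO at 24 h HCM, from 67.8, 81.6 and 75.8 CPM in WT to 135, 147 and 150. The increase was 1.92-fold (0.94 ± 0.17, adjusted p = 3.01e-05). The order was the opposite at 72 h HCM, with 98.4, 92.0 and 144 CPM in WT and 70.0, 65.4 and 64.8 in PKP4-KO, a 1.67-fold decrease (-0.74 ± 0.17, adjusted p = 0.000522). The libraries of the 2 genotypes were apart in both cases. At 72 h LCM, WT had 138, 153 and 146 CPM and PKP4-KO 178, 259 and 194, a 1.44-fold increase (adjusted p = 0.00989) that was lost without PKP4-KO library 2 (adjusted p = 0.11) or without TMM factors (0.12, adjusted p = 0.455). At 24 h LCM the difference of 0.39 ± 0.16 did not pass (adjusted p = 0.0559). The 36 genes around Zyx had medians of -0.26 and -0.09 at 24 h in HCM and LCM. At 72 h these medians were -0.48 and -0.53, and the part of these genes in the result was not tested. In Rescue, Zyx overlapped WT at 24 h HCM with 79.2, 80.9 and 66.2 CPM (log2 fold change 0.01 ± 0.16) and stood above all WT libraries at 72 h HCM with 231, 209 and 157. The latter was 1.79-fold over WT (adjusted p = 0.000243) and 2.99-fold over PKP4-KO (adjusted p = 7.68e-09).

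Among the cross-linkers, filamin A fell with loss of PKP4 and the alpha-actinins did not pass. Flna (ENSMUSG00000031328, chrX:73265347-73293456, minus strand, 46 exons) stood at 669, 615 and 637 CPM in WT and at 304, 317 and 317 in PKP4-KO at 24 h HCM. This 2.05-fold decrease (-1.04 ± 0.13, adjusted p = 2.62e-07) was the largest of the gene among the 4 conditions. In HCM at 72 h the levels were 374, 404 and 382 against 320, 256 and 264, 1.38-fold lower in PKP4-KO (adjusted p = 0.00471). In LCM the decreases were smaller, 1.32-fold at 24 h (adjusted p = 0.0169) and 1.27-fold at 72 h (adjusted p = 0.0353), the latter with overlapping libraries. Leaving out WT library 2 or PKP4-KO library 1 or 2 ended the call at 24 h LCM (adjusted p = 0.0643 to 0.0935), and leaving out WT library 2 or 3 or PKP4-KO library 1 ended that at 72 h LCM (adjusted p = 0.063 to 0.261). The 65 genes around Flna on chromosome X had medians of -0.43 to -0.40 in PKP4-KO and -0.46 to -0.28 in Rescue, and their part in the result was not tested. The Flna changes in PKP4-KO outside 24 h HCM (-0.47 to -0.35) were of about that size, whereas those in Rescue were -0.11, -0.08 and 0.52. In Rescue, Flna was 1.6-fold below WT at 24 h HCM (395, 407 and 399 CPM, adjusted p = 0.000336) and 1.43-fold above WT at 72 h LCM (587, 527 and 547 against 350, 428 and 383 CPM, adjusted p = 0.00318, 0.0557 without TMM factors).

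Actn1 (ENSMUSG00000015143, chr12:80212233-80307547, minus strand, 21 exons) had libraries of PKP4-KO and WT that overlapped in all 4 conditions. Its log2 fold changes were 0.00 ± 0.18 at 24 h in both media, -0.13 ± 0.18 at 72 h HCM and 0.18 ± 0.18 at 72 h LCM, and the 95% interval at 24 h ran from -0.35 to 0.35. At 72 h HCM it was called lower without TMM factors (-0.90, adjusted p = 0.00532). In Rescue at 72 h LCM it stood at 371, 281 and 341 CPM against 190, 233 and 186 in WT, a 1.63-fold increase (adjusted p = 0.00312, 0.0609 without TMM factors). Actn4 (ENSMUSG00000054808, chr7:28592672-28661839, minus strand, 22 exons, overlapping Capn12 on the other strand) had 657, 876 and 736 CPM in WT and 554, 519 and 757 in PKP4-KO at 24 h HCM (-0.31 ± 0.15, adjusted p = 0.0972, 0.0121 without PKP4-KO library 3). At 72 h HCM it had 703, 693 and 810 against 947, 827 and 723. The genotypes overlapped in both, and the log2 fold change at 72 h HCM of 0.18 ± 0.15 (adjusted p = 0.322) turned to -0.58 without TMM factors. In LCM it was 0.07 ± 0.15 at 24 h and -0.20 ± 0.15 at 72 h (adjusted p = 0.721 and 0.284). Rescue fell below WT in HCM, by 1.36-fold at 24 h (adjusted p = 0.0325) and 1.43-fold at 72 h (525, 553 and 465 CPM, adjusted p = 0.00847). The first was lost without WT library 2 or 3 or Rescue library 1 or 3 (adjusted p = 0.0572 to 0.185), and both were lost without TMM factors (adjusted p = 0.12 and 0.578). The canonical transcripts of Actn1 and Actn4 share an exact run of 65 bases, which is shorter than a read. Whether any reads were counted for the wrong gene was not tested.

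The comparison of Rescue with WT asks how far re-expression of PKP4 brings the cells back, and that with PKP4-KO asks what it changes. These comparisons share the WT or the PKP4-KO libraries with the one above and are not independent of it. Against WT, 5 members passed at 24 h HCM, all lower (23.2% of all genes either way), 2 at 24 h LCM, both lower (24.8%), 4 at 72 h HCM, 3 of them higher (36.2%), and 6 at 72 h LCM, 3 of them higher (32.4%). Without TMM factors these counts were 2, 2, 6 and 2. Against PKP4-KO, 6 passed at 24 h HCM, of which 2 were higher (40.8% of all genes). Of 4 at 24 h LCM, 2 were higher (33.7%). Of 8 at 72 h HCM, 7 were higher (66.7% of all genes either way, 37.2% higher), and of 7 at 72 h LCM, 5 were higher (41.6%). The split at 72 h HCM was 10 higher and 0 lower without TMM factors, where Actn4 turned from -0.69 to 0.48 and Tln1 from -0.09 to 1.08. Vcl passed in all 4 conditions both ways, with a decrease from WT to PKP4-KO and an increase from PKP4-KO to Rescue. Tns3 at 24 h HCM went further down in Rescue than in PKP4-KO (1.78-fold, adjusted p = 0.007, 0.0673 without TMM factors). At 72 h LCM, Flna (1.82-fold, adjusted p = 6.18e-06) and Ptk2 (1.75-fold, adjusted p = 0.00196) were higher in Rescue than in PKP4-KO. Some further rises over PKP4-KO missed the threshold when 1 library was left out. Flna at 24 h HCM (0.36, adjusted p = 0.0319) missed it whichever of its 6 libraries was left out (adjusted p = 0.0576 to 0.0852). Its log2 fold change stayed at 0.34 to 0.37 in these fits. The rises of Flna at 72 h HCM (0.38, adjusted p = 0.0136, 0.0519 to 0.0627 without PKP4-KO 2 or Rescue 1) and of Pxn at 24 h LCM (0.41, adjusted p = 0.0303, 0.0858 to 0.113 without PKP4-KO 2 or 3 or Rescue 3) also missed it. Those of Actn1 at 72 h were lost without PKP4-KO 2 or Rescue 2 in HCM (adjusted p = 0.087 to 0.117) and without PKP4-KO 1 or 2 or Rescue 1 or 3 in LCM (adjusted p = 0.058 to 0.103), and that of Pxn at 72 h LCM without PKP4-KO 1 (adjusted p = 0.0511).

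High calcium lowered several adaptors in each genotype. In WT, 5 members fell at 24 h and 0 rose, beside 6.48% of all genes lower, 7.69% higher and 14.2% either way, and 4 fell at 72 h, beside 10.8% and 21.4%. Without TMM factors, 6 and 5 members were called lower, and among all called genes the share that was higher went from 54.3% to 24.9% at 24 h and from 49.6% to 25.6% at 72 h. Pxn went from 168, 196 and 176 CPM in LCM to 71.0, 93.8 and 76.2 in HCM at 24 h, a 2.24-fold decrease without overlap (-1.17 ± 0.15, adjusted p = 1.07e-06). Zyx went from 148, 169 and 177 to 67.8, 81.6 and 75.8 (2.19-fold, adjusted p = 1.23e-05) and Tln1 from 184, 214 and 190 to 109, 108 and 126 (1.71-fold, adjusted p = 0.000129). Tns3 (1.79-fold, adjusted p = 0.0153) and Ptk2 (1.55-fold, adjusted p = 0.034) also fell. Without single libraries these last changes missed the threshold, Tns3 without HCM library 2 (adjusted p = 0.0754) and Ptk2 without HCM 2 or 3 or LCM 1 or 3 (adjusted p = 0.0787 to 0.182). At 72 h in WT, Tns3 (2.62-fold, adjusted p = 8.23e-05), Tln1 (1.68-fold, adjusted p = 0.000138), Pxn (1.45-fold, adjusted p = 0.00798) and Ilk (1.3-fold, adjusted p = 0.0382) fell. Pxn was lost without HCM library 1 (adjusted p = 0.0596) and Ilk without HCM 1 or 2 or LCM 1 or 3 (adjusted p = 0.105 to 0.149).

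In PKP4-KO at 24 h, 4 members fell in HCM beside 1.40% of all genes lower and 2.83% either way, namely Pxn (1.7-fold, adjusted p = 0.00237), Tln1 (1.5-fold, adjusted p = 0.0121), Flna (1.48-fold, adjusted p = 0.014) and Zyx (1.5-fold, adjusted p = 0.0486). With only these groups in the fit, 0 of the 10 members passed, and without TMM factors Tln1 (adjusted p = 0.216) and Flna (adjusted p = 0.159) missed the threshold. Zyx was lost without any of its 6 libraries (adjusted p = 0.0912 to 0.154), Tln1 without HCM 3 or LCM 2 or 3 (adjusted p = 0.0775 to 0.081) and Flna without HCM 1 or 2 or LCM 3 (adjusted p = 0.0538 to 0.0944). At 72 h, 9 members passed (2 higher, 7 lower) beside 32.6% of genes either way and 19.7% lower. Zyx fell 3.15-fold (-1.66 ± 0.17, adjusted p = 2.27e-08), Tns3 2.83-fold (adjusted p = 0.000132), Pxn 2.71-fold (adjusted p = 2.87e-08), Tln1 2.63-fold (adjusted p = 1.39e-08), Ptk2 2.14-fold (adjusted p = 0.000221), Ilk 1.82-fold (adjusted p = 1.53e-05) and Actn1 1.53-fold (adjusted p = 0.01). Vcl (0.59 ± 0.19, adjusted p = 0.0181) and Actn4 (0.50 ± 0.15, adjusted p = 0.012) rose, but turned to -0.11 and -0.18 without TMM factors, where 8 members were called, all lower. Single libraries ended the calls of Vcl (without HCM 1 or 2 or LCM 2, adjusted p = 0.0572 to 0.0692), Actn4 (HCM 1 or LCM 1 or 3, 0.0642 to 0.0793) and Actn1 (HCM 2 or LCM 3, 0.0706 to 0.0766). In the same libraries Krt1 went from 432 ± 45.1 to 3750 ± 101 CPM and Krt10 from 817 ± 419 to 4430 ± 392, and the part of differentiation in the adaptor values was not tested.

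In Rescue at 24 h, 6 members fell in HCM beside 5.96% of genes lower and 12% either way, led by Zyx (2.56-fold, adjusted p = 1.21e-06) and Pxn (2.37-fold, adjusted p = 6.36e-07). Tns3, Tln1, Ilk and Flna fell by 1.41-fold to 1.78-fold. Of these, Tns3 was lost without HCM 1 or 2 or LCM 1 or 2 (adjusted p = 0.0509 to 0.0927), Ilk without HCM 3 or LCM 3 (0.0547 to 0.0589) and Flna without LCM 2 (0.0625). Tns3 (adjusted p = 0.109) and Flna (adjusted p = 0.0814) also missed the threshold without TMM factors. At 72 h, 6 passed (2 higher, 4 lower) beside 24.9%. Tns3 rose from 13.0, 8.98 and 13.2 CPM in LCM to 35.7, 32.5 and 23.3 in HCM (2.59-fold, adjusted p = 0.000108) and Vcl from 28.5, 20.4 and 24.2 to 53.6, 47.6 and 44.2 (1.99-fold, adjusted p = 0.000168). Neither gene had overlapping libraries. The change of Tns3 had the opposite sign in WT and PKP4-KO at 72 h, and the difference from Rescue was not tested. Actn1 (1.58-fold, adjusted p = 0.00765), Pxn (1.54-fold, adjusted p = 0.00198), Flna (1.52-fold, adjusted p = 0.00125) and Tln1 (1.42-fold, adjusted p = 0.007, 0.0639 without HCM 3) fell. Without TMM factors, Actn1, Flna and Tln1 missed the threshold and Zyx was called higher, so that 3 members were higher and 1 lower. Pxn and Tln1 fell in all 6 comparisons of the media with TMM factors, but Tln1 missed the threshold without them in PKP4-KO at 24 h (adjusted p = 0.216) and in Rescue at 72 h (adjusted p = 0.223), and the calls in PKP4-KO at 24 h did not hold in a fit of the contrasted groups alone. Members that did not pass had log2 fold changes between HCM and LCM of -0.45 to 0.36 for WT cells, -0.45 to 0.35 for PKP4-KO cells and -0.44 to 0.35 for Rescue cells.

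**Figure D4:**
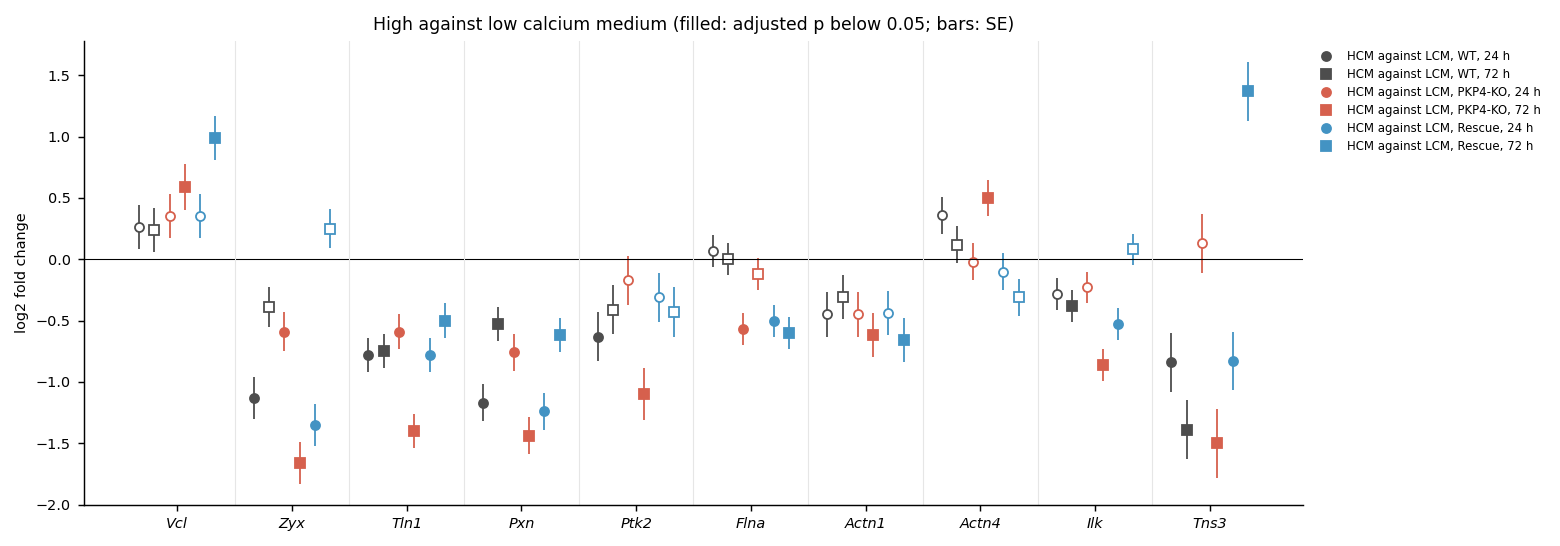
log2 fold change (± SE) of the 10 genes in HCM against LCM in WT, PKP4-KO and Rescue at 24 h and 72 h, 3 libraries a group, with filled symbols where the adjusted p was below 0.05. Pxn and Tln1 lie below 0 in all 6 comparisons, and Tns3 lies at -1.39 in WT and 1.37 in Rescue at 72 h.

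With time in HCM, 8 members fell in PKP4-KO, 3 in WT and 0 in Rescue. In PKP4-KO, 9 passed (1 higher, 8 lower) beside 55.8% of all genes either way and 31.4% lower. Tns3 fell from 22.0, 19.9 and 18.9 CPM at 24 h to 4.44, 1.02 and 4.65 at 72 h (5.89-fold, -2.56 ± 0.28, adjusted p = 1.27e-08). Ptk2 fell 2.47-fold (adjusted p = 9.1e-06), Tln1 2.34-fold (adjusted p = 2.38e-08), Zyx 2.16-fold (adjusted p = 2.97e-06), Pxn 1.96-fold (adjusted p = 3.42e-06), Actn1 1.83-fold (adjusted p = 0.000208), Ilk 1.67-fold (adjusted p = 3.9e-05) and Vcl 1.4-fold (adjusted p = 0.0296). Flna did not pass (-0.16 ± 0.13, adjusted p = 0.318). Actn4 rose 1.36-fold with overlapping libraries (adjusted p = 0.0128) and turned to -0.60 without TMM factors, where all 10 members were called lower. The median of all tested genes moved to -1.16 there. Vcl was lost without 24 h library 1 or 2 or 72 h library 2 or 3 (adjusted p = 0.0544 to 0.104), and Actn4 without 24 h library 1 or 2 or 72 h library 1 (adjusted p = 0.0657 to 0.0921).

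In WT in HCM, 4 passed (1 higher, 3 lower) beside 17.9%. Actn1 fell from 297, 239 and 288 CPM to 156, 179 and 155 (1.68-fold, adjusted p = 0.00425) and Flna from 669, 615 and 637 to 374, 404 and 382 (1.66-fold, adjusted p = 0.000266), both without overlap. Vcl fell 1.45-fold (adjusted p = 0.0402) and Zyx rose 1.49-fold (adjusted p = 0.0153). Vcl was lost in 5 of the 6 fits without a library (adjusted p = 0.0555 to 0.21) and Zyx without 24 h library 1 or 72 h library 3 (adjusted p = 0.0837 to 0.187), and both were lost without TMM factors. In Rescue in HCM, 4 members rose, beside 13.6% higher and 24.3% either way. Tns3 rose from 10.4, 10.7 and 13.1 to 35.7, 32.5 and 23.3 CPM (2.67-fold, adjusted p = 7.16e-05) and Zyx from 79.2, 80.9 and 66.2 to 231, 209 and 157 (2.64-fold, adjusted p = 3.08e-07). Ilk rose 1.43-fold (adjusted p = 0.00502) and Pxn 1.36-fold (adjusted p = 0.0245, 0.0619 to 0.131 without 24 h library 3 or 72 h library 1 or 2). In LCM fewer members passed, with 2 of 10 in WT (9.96% of all genes), 5 in PKP4-KO (26.2%) and 1 in Rescue (9.81%), all lower. Those of WT were Actn1 (1.85-fold, adjusted p = 0.00144) and Flna (1.58-fold, adjusted p = 0.00138), and that of Rescue was Tns3 (1.73-fold, adjusted p = 0.0337), lost in 5 fits without a library (adjusted p = 0.0519 to 0.167). Members that did not pass with time had log2 fold changes of -0.51 to 0.67 for WT cells and -0.38 to -0.04 for PKP4-KO cells, and those of HCM in Rescue ran from -0.46 to 0.40. In PKP4-KO in LCM those that passed were Tns3 (1.9-fold), Vcl (1.64-fold), Actn1 (1.64-fold), Flna (1.52-fold) and Tln1 (1.33-fold), of which Vcl was lost without 24 h library 3 (adjusted p = 0.132) and Tln1 without 24 h library 2 or 3 or 72 h library 1 (adjusted p = 0.105 to 0.152).

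**Figure D5:**
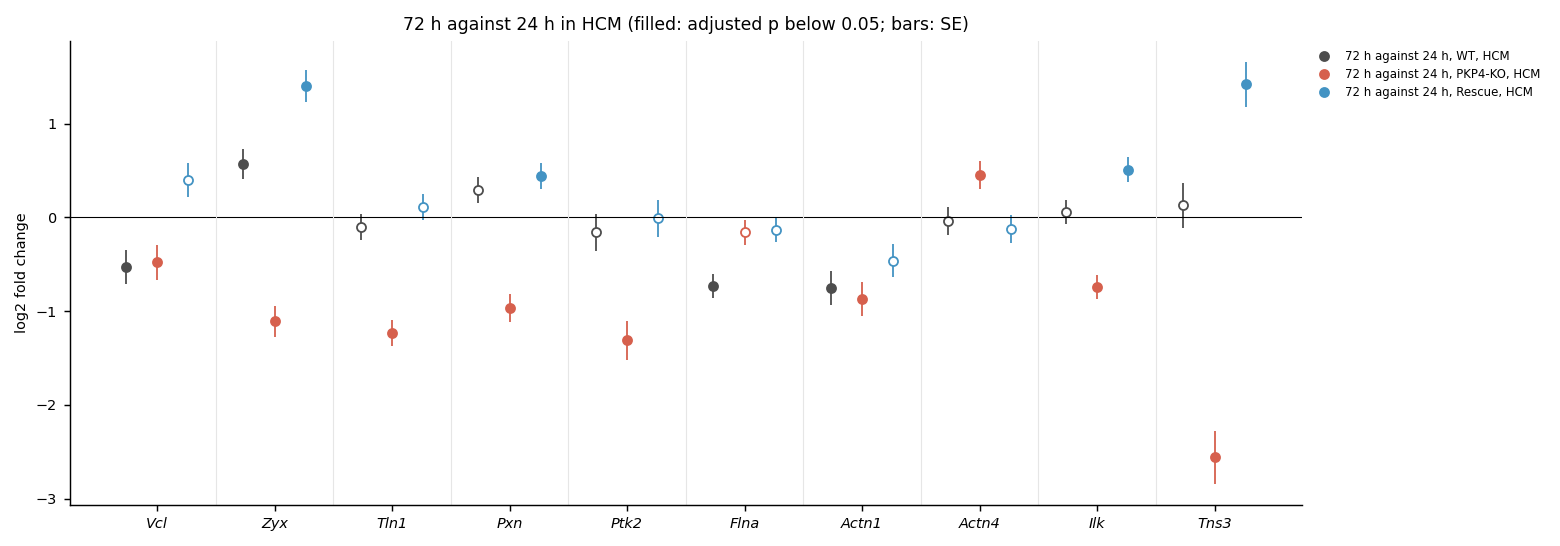
log2 fold change (± SE) of the 10 genes at 72 h against 24 h in HCM in WT, PKP4-KO and Rescue, 3 libraries a group, with filled symbols where the adjusted p was below 0.05. In PKP4-KO 8 genes lie below 0 and passed, with Tns3 at -2.56, whereas in Rescue Tns3 and Zyx lie at 1.42 and 1.40.

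Whether responses differed between PKP4-KO and WT was tested directly as an interaction in the same fit. For the change with time in HCM, 7 of 10 members passed (1 higher, 6 lower) beside 26.6% of all genes, namely Tns3, Zyx, Pxn, Ptk2, Tln1 and Ilk with a lower value in PKP4-KO and Flna with a higher one. For the calcium response at 72 h, 3 passed (Zyx, Pxn and Tln1, all lower) beside 5.74%, and for the change with time in LCM only Tns3 passed beside 5.26%. For the calcium response at 24 h, 0 of 10 passed edgeR's quasi-likelihood test beside 4.02% of genes, with 3 at an unadjusted p under 0.05 and 2 called by DESeq2. The values stand with the results for a closer look.

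Other genes of these adhesions were read from a list of 45, of which 40 were tested. In PKP4-KO against WT, 22 of the 40 passed at 24 h HCM, where 6 rose and 16 fell, 23 at 24 h LCM (6 and 17), 31 at 72 h HCM (7 and 24) and 23 at 72 h LCM (9 and 14), beside 42.8%, 40.2%, 51.8% and 45.1% of all tested genes, with medians of -0.24, -0.27, -0.76 and -0.30 on the log2 scale beside medians of all tested genes of -0.07 to 0.02. Of the 10 genes called one way in all 4 conditions, those with the largest mean change were Fermt2, Kank2, Sorbs3 and Nedd9. How many of all tested genes were called one way in all 4 conditions was not counted. Fermt2 encodes kindlin-2, an activator of integrins, and had 5 to 90 counts in WT libraries, 0 to 11 in PKP4-KO and 8 to 41 in Rescue. Kank2, which encodes a talin-binding protein, had at 24 h HCM a level of 29.3 ± 8.03 CPM in WT, against 6.75 ± 2.92 in PKP4-KO and 9.09 ± 2.03 in Rescue (SD, n = 3). At 72 h HCM its level was 1.33 ± 0.774 CPM in PKP4-KO, against 13.6 ± 0.991 for WT and 14.6 ± 2.82 for Rescue, and Rescue did not pass against WT there (log2 fold change 0.11, adjusted p = 0.791). Sorbs3, which encodes the vinculin-binding protein vinexin, had 29 to 174 counts in WT libraries and 2 to 29 in PKP4-KO. Nedd9, a docking protein of focal adhesion kinase and Src signalling, was higher, with 4.15 ± 0.563 CPM in WT and 29.6 ± 4.39 in PKP4-KO at 24 h HCM. In Rescue against WT, 18, 15, 13 and 19 of the 40 passed in the same order of conditions (7, 7, 10 and 13 higher), beside 23.2%, 24.8%, 36.2% and 32.4% of all tested genes. Parvb, which encodes the ILK partner beta-parvin, had 0 to 10 counts in WT, 0 to 2 in PKP4-KO and 26 to 240 in Rescue. Sorbs3 (mean log2 fold change -3.13) and Tln2 (0.65) were also called one way in all 4 conditions there.

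Of 19 integrin genes, 12 were tested. In PKP4-KO against WT, 7 passed at 24 h HCM, where 1 rose and 6 fell, 7 at 24 h LCM (0 and 7), 9 at 72 h HCM (1 and 8) and 7 at 72 h LCM (1 and 6), beside the same shares of all genes as above, namely 42.8%, 40.2%, 51.8% and 45.1%, with medians of -0.42, -1.03, -1.92 and -0.82. Those called one way in all 4 conditions were Itgb7, Itgb6, Itgb5 and Itgav, subunits of matrix and cell-cell receptors, with mean log2 fold changes of -3.38, -2.20, -1.98 and -1.78. The share of all tested genes called in this way was not counted. At 24 h HCM, Itgb7 stood at 14.1 ± 1.69 CPM in WT, against 0.88 ± 0.334 in PKP4-KO and 31.7 ± 6.76 in Rescue. Between Rescue and WT, 4, 5, 6 and 5 integrin genes passed in the same order of conditions (23.2%, 24.8%, 36.2% and 32.4% of all genes), and Itgb7 was higher (mean 1.55) while Itgb6 (-1.33) and Itgb5 (-0.91) were lower in all 4 conditions. Over the members, the log2 means of the 12 groups ran most alike for Tln1 and Ilk (Pearson r = 0.94) and for Pxn and Ptk2 (0.84), and least alike for Actn4 and Ptk2 (-0.77), while Vcl and Tln1 had -0.58. These values describe 12 groups that share the same genotypes and scaling. Each gene named next was picked as the highest r among 12552 protein-coding genes, and shared regulation was not tested. Outside the 10 genes, the protein-coding gene with the most similar pattern was Add3 for Tns3 (r = 0.978), Rangap1 for Tln1 (0.978), Asap2 for Pxn (0.974), Pprc1 for Actn1 (0.966), Atp2b1 for Vcl (0.96), Cep164 for Zyx (0.956), Ovol2 for Ilk (0.953), H4c2 for Actn4 (0.934) and Lama3 for Flna (0.905).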

How the data were processed

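Poly(A) RNA of 36 keratinocyte libraries was sequenced as paired, strand-specific reads. The authors deposited raw counts per gene, made with HISAT2 2.1.0, SAMtools 1.10 and featureCounts 2.0.0 on GRCm39 with the GFP-PKP4 sequence added; the strand setting of counting is not given in the sources used here. Libraries were grouped by genotype, time and medium from the sample titles. In these titles, which hold no hours, GFP was read as Rescue, LD as 24 h and HD as 72 h. From the counts, edgeR 4.0.16 (R 4.3.3) gave TMM factors, a filter on low counts (filterByExpr) that left 15114 genes, and quasi-likelihood tests in a model of 12 groups with 24 residual degrees of freedom, adjusted by Benjamini-Hochberg over all tested genes at 0.05. Totals were 13602728 to 22467187 counts per library, and no same-group pair agreed within sampling noise (chi-square per gene 7.03 to 266). Alternatives were DESeq2 1.42.0, no TMM factors, no filter, a stricter filter (every library at 10 counts or more), fits of the contrasted groups alone, a replicate block, and leaving out each library. Replicate numbers were not used to pair libraries in the reported fit. In 2 of 24 comparisons (Rescue against PKP4-KO at 72 h LCM and HCM against LCM in WT at 24 h) all same-numbered pairs correlated over 0.1. Motifs were searched in the genome with the GENCODE canonical starts. All 10 members were tested in every comparison. Those that did not pass are described by values or range in part of the comparisons. No such values are given for the interactions or for time in Rescue in LCM. Of the listed genes, up to 4 a list are named, those with the largest mean change among those called one way in all 4 conditions, and for likeness the gene with the highest Pearson r over log2(CPM + 0.5) group means. A few genes that this rule names are not reported here. The members and lists were chosen with earlier results of these data known.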

Additional observations from a re-analysis of the deposited data

Results flagged for a closer look

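Each of the following is a log2 difference of a response between PKP4-KO and WT (± SE, 3 libraries a group) that passed edgeR's quasi-likelihood interaction test. For the change from 24 h to 72 h in HCM, the response in PKP4-KO was lower for Tns3 (-2.69 ± 0.36, adjusted p = 2.07e-06), Zyx (-1.68 ± 0.23, adjusted p = 3.12e-06), Pxn (-1.26 ± 0.21, adjusted p = 3.32e-05), Ptk2 (-1.14 ± 0.29, adjusted p = 0.00433), Tln1 (-1.13 ± 0.19, adjusted p = 5.48e-05) and Ilk (-0.80 ± 0.19, adjusted p = 0.00201). For Flna it was higher (0.57 ± 0.19, adjusted p = 0.0243), but this turned to -0.25 without TMM factors and was lost without WT 72 h library 1, PKP4-KO 24 h library 1 or PKP4-KO 72 h library 1 (adjusted p = 0.0551 to 0.092). For the change from LCM to HCM at 72 h, PKP4-KO was lower for Zyx (-1.27 ± 0.23, adjusted p = 0.000729), Pxn (-0.90 ± 0.21, adjusted p = 0.00632) and Tln1 (-0.65 ± 0.19, adjusted p = 0.0409), the last of which was lost in 8 of 12 fits that left out 1 library (adjusted p = 0.0533 to 0.14). For the change with time in LCM, PKP4-KO was lower for Tns3 (-1.60 ± 0.34, adjusted p = 0.00365). The PKP4-KO libraries at 72 h HCM enter every one of these but the last, and they had the lowest TMM factors (0.48 to 0.55) and the highest Krt1 and Krt10 levels. The part of these features in the differences was not tested.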

How the results depend on the processing

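Values below are counts of the 10 members called, with the reported count first. Without TMM factors, PKP4-KO against WT at 72 h HCM went from 6 to 10, Rescue against WT from 5 to 2 at 24 h HCM and from 6 to 2 at 72 h LCM, Rescue against PKP4-KO at 24 h HCM from 6 to 3, HCM against LCM in PKP4-KO at 24 h from 4 to 2, and time from 4 to 2 in WT HCM, 5 to 9 in PKP4-KO LCM and 1 to 0 in Rescue LCM. The calcium interaction at 24 h went from 0 to 2, also with DESeq2, which took time in WT LCM from 2 to 4. Without the filter, PKP4-KO against WT at 72 h LCM went from 5 to 3, Rescue against WT from 5 to 2 at 24 h HCM and from 2 to 1 at 24 h LCM, the calcium response of PKP4-KO at 24 h from 4 to 1, and time in Rescue from 4 to 2 in HCM and 1 to 0 in LCM. With at least 10 counts in every library, which left out Tns3, Rescue against WT at 24 h LCM went from 2 to 1, the calcium response of WT at 72 h from 4 to 2, time in Rescue LCM from 1 to 0, and the interactions from 0 to 1 (calcium, 24 h) and 1 to 0 (time, LCM). With only the contrasted groups, PKP4-KO against WT at 72 h LCM went from 5 to 3, Rescue against PKP4-KO at 24 h LCM from 4 to 2, the calcium response from 4 to 2 in WT at 72 h and from 4 to 0 in PKP4-KO at 24 h, time from 4 to 2 in WT HCM, 2 to 5 in WT LCM, 5 to 1 in PKP4-KO LCM and 1 to 0 in Rescue LCM, and the calcium interaction at 72 h from 3 to 1. The cause of these changes was not tested.

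Leaving out 1 library at a time gave 2 to 6 for Rescue against WT at 24 h HCM and 1 to 2 at 24 h LCM, 2 to 3 for Rescue against PKP4-KO at 24 h LCM, 3 to 5 and 2 to 5 for the calcium response of WT at 24 h and 72 h, 2 to 4 for that of PKP4-KO at 24 h, 2 to 4, 3 to 6 and 0 to 1 for time in WT HCM, PKP4-KO LCM and Rescue LCM, and 0 to 1 for the calcium interaction at 24 h. Values that reversed without TMM factors were Actn4 at 72 h HCM in the comparison of PKP4-KO with WT (0.18 to -0.58), in Rescue against PKP4-KO at 72 h HCM (-0.69 to 0.48), the calcium response of PKP4-KO at 72 h (0.50 to -0.18) and its time response in HCM (0.45 to -0.60), Tln1 in Rescue against PKP4-KO at 72 h HCM (-0.09 to 1.08), Vcl in the calcium response of PKP4-KO at 72 h (0.59 to -0.11) and Flna in the time interaction in HCM (0.57 to -0.25). With the replicate block, the count for time in WT HCM was 3 in place of 4 (Vcl was lost) and every other count was as reported, also in the 2 of 24 comparisons where all same-numbered pairs correlated over 0.1. Over the 72 pairs the correlations ran from -0.649 to 0.718, and 21 were over 0.1.

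Over all tested genes, counts of calls moved by more than 1.5 times in these cases. The calcium response of PKP4-KO at 24 h went from 428 to between 10 and 799 over 4 settings (213 to 340 without 1 library), that of PKP4-KO at 72 h from 4925 to 7929 and the time interaction in HCM from 4018 to 7327 without TMM factors, and that of Rescue at 24 h from 1808 to 1203 without the filter. With only the contrasted groups, Rescue against PKP4-KO at 72 h LCM went from 6281 to 3708, the calcium response of WT at 24 h from 2143 to 1375, and time from 2698 to 716 (WT HCM, 1720 to 2899 without 1 library), 1505 to 2284 (WT LCM, 887 to 1195 without 1 library), 3954 to 1710 (PKP4-KO LCM), 3676 to 5876 (Rescue HCM) and 1482 to 738 (Rescue LCM). Interactions went from 607 to between 255 and 365 (calcium, 24 h), from 867 to between 459 and 1305 (calcium, 72 h) and from 795 to between 439 and 516 (time, LCM). The count of integrins at 24 h HCM went from 7 to 4 for PKP4-KO over WT, and for Rescue against WT it went from 4 to 2, 5 to 2, 6 to 10 and 5 to 3 over the conditions. Other focal adhesion genes went from 18 to 11 at 24 h HCM and from 15 to 9 at 24 h LCM. Without TMM factors the percent of calls that were higher fell from 48.9 to 34.1 and 47.3 to 25.7 for PKP4-KO against WT at 24 h and 72 h LCM, from 39.6 to 8.2 for calcium in PKP4-KO at 72 h and from 43.6 to 12.6 for its time response in HCM, and rose from 55.8 to 84.7 for Rescue against PKP4-KO and from 53.9 to 80.1 for Rescue against WT, both at 72 h HCM. Without TMM factors the share of called genes that were higher also moved by over 10 percentage points for Rescue against WT at 24 h HCM (51.0% to 66.2%) and 24 h LCM (54.2% to 44.0%), Rescue against PKP4-KO at 72 h LCM (56.0% to 76.9%), calcium in Rescue at 72 h (52.0% to 63.2%), time in WT HCM (51.3% to 30.0%), WT LCM (53.2% to 27.3%) and PKP4-KO LCM (47.5% to 20.9%), and the differences between PKP4-KO and WT in the calcium response at 24 h (30.6% to 56.7%) and 72 h (32.3% to 6.8%) and in the time response in HCM (40.5% to 9.8%).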
